A study of Vitis vinifera with 219 samples.

Results

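A set of 46 grapevine genes was examined in which the transcript difference between the cultivars Pinot noir and Cabernet Sauvignon had opposite signs in green and in ripe berries. The genes were selected on measured values. For every gene the mean log2(RPKM + 1) of each group of libraries was taken, where RPKM is the number of reads relative to transcript length and to all mapped reads of a library, and the Cabernet Sauvignon mean was subtracted from the Pinot noir mean. This difference was averaged over 3 seasons at day -18 to -13 and again at day 42 to 43, counted from veraison. A gene was kept if its RPKM was at least 1 in at least 3 libraries, both differences were at least 1 in size, and their signs were opposite. Of 29971 gene IDs in the table, 21425 passed the filter on low values, and 46 of those (0.215%) met the whole rule. In 36 of them Pinot noir was lower before ripening and higher at day 42 to 43, and in 10 it was higher first and lower later. A difference is given throughout as Pinot noir minus Cabernet Sauvignon on the log2(RPKM + 1) scale, which understates ratios of low genes.

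Berry pericarp, with seeds removed, was sampled over the seasons 2012, 2013 and 2014 near Modesto, California. The vines were unthinned, and each sample was ground from 60 pooled berries of a vine block. Pinot noir was clone FPS 23 on the rootstock Freedom, planted in 2001, and had 30, 33 and 36 libraries in the 3 seasons. Cabernet Sauvignon was clone FPS 8 on the rootstock 5C, planted in 1997, and had 39, 42 and 39 libraries. Each cultivar was 1 clone on 1 rootstock and of 1 planting year, so cultivar, rootstock, vine age and position in the vineyard cannot be told apart. The libraries form 73 groups of 3, each of 1 cultivar, season and time point. Labelled days ran from -36 to 53 in Pinot noir and from -37 to 80 in Cabernet Sauvignon.

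A grape berry first grows as a hard, green and acid fruit and then enters ripening at veraison, when it softens, colours and begins to store sugar. Large parts of its transcriptome are rearranged around that point, as photosynthesis and cell division give way to sugar, pigment and aroma metabolism. Pinot noir is known as an early-ripening cultivar with lightly coloured skins, and Cabernet Sauvignon as a late-ripening one with deeply coloured skins.

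The table names genes by ID only, and 0 of its IDs matched the reference gene table, so no symbol or function is given for any of the 46 genes and no sequence is shown. By the form of the IDs, the number after the prefix is the chromosome. The 46 genes carried 17 different numbers, with 7 genes on 5, 4 each on 2 and 3, and 6 with the number 0, which stands for unplaced sequence. Their mean RPKM over all libraries lay between 1.46 and 2010 with a median of 9.23, and 33 of them averaged at least 5.

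Column sums of RPKM lay between 807469 and 1192349, and the read depth of the libraries is unknown. There were 4 libraries that carried the whole marker set of the other cultivar. These were the 3 Cabernet Sauvignon libraries of day -23 in 2014, which showed all 6 genes seen only in Pinot noir in the other seasons, and replicate 2 of Pinot noir at day -14 in 2014, which showed all 13 genes seen only in Cabernet Sauvignon. Markers of their labelled cultivar were absent or nearly so. That Pinot noir library showed 0 of the 6, and replicates 1, 2 and 3 of Cabernet Sauvignon showed 0, 0 and 2 of the 13. A further Pinot noir library, replicate 3 of day -20 in 2014, showed 2 of these 13, and neither the rule nor the main comparisons used its group mean. It entered the alternatives that add 2014 to early green berries and the estimate of spread in the fit. Of the 4 libraries, the rule used only the one of Pinot noir. Without these 4 the rule gave 57 genes, 44 of them shared, and lost VIT_14s0066g00570 and VIT_19s0015g00290. The libraries also fell into 2 kinds by 13 genes that were at least 5 RPKM in every library of 2012 and under 1 in every library of 2014. In 2013, 13 of 75 libraries were like 2014, namely Cabernet Sauvignon from day 43 to 63 and replicate 1 of day -13, so at day 42 to 43 and later Pinot noir and Cabernet Sauvignon of 2013 differed in this as well. None of the 13 genes is among the 46, and the labels give no batch.

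The 46 genes were a small part of the genes with a cultivar difference. A difference of at least 1 in size was found for 1164 genes before onset and for 2303 at day 42 to 43, and 558 genes had both, of which 512 kept their sign. The medians at the 2 stages were -1.21 and 1.48 over the 36 genes, and 1.20 and -1.19 over the 10 genes. These values chose the genes and are a description. The set depended on the threshold: 16 of its genes had a smaller difference between 1 and 1.1, and 15 genes outside it had opposite signs and a smaller difference between 0.9 and 1. Just inside lay VIT_00s0218g00190 (-1.01 and 1.78) and VIT_16s0100g00220 (-1.14 and 1.02) among the 36, and VIT_06s0004g06370 (1.01 and -1.10) and VIT_19s0015g00290 (1.01 and -1.38) among the 10. Just outside lay VIT_00s0301g00080 (-0.999 and 1.92), VIT_08s0007g00820 (-0.99 and 1.61), VIT_01s0244g00110 (0.99 and -1.34) and VIT_19s0014g02740 (0.97 and -1.14).

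**Figure D1:**
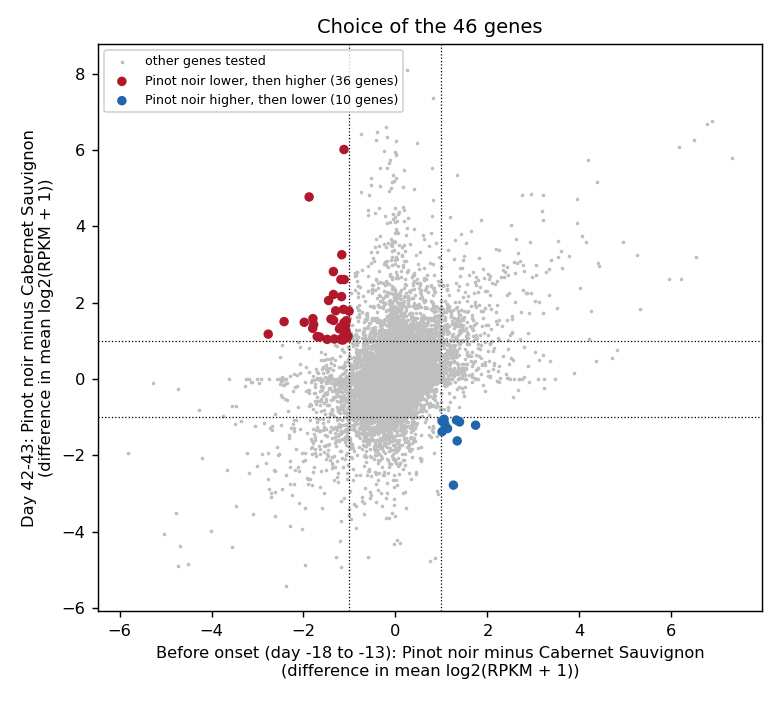
Difference between Pinot noir and Cabernet Sauvignon in mean log2(RPKM + 1) before onset (horizontal axis) and at day 42 to 43 (vertical axis), 1 point per gene, with dotted lines at 1 and -1. The 36 genes that were lower and then higher in Pinot noir lie at the upper left. The 10 genes that were higher and then lower lie at the lower right. The other 512 genes with a difference of at least 1 at both stages lie at the upper right or lower left.

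Season by season the pattern was uneven. Opposite signs in the direction of the rule were present in 34 of the 46 genes in 2012, in 45 in 2013 and in 42 in 2014. In 31 genes they were present in all 3 seasons. The mean of these seasons chose the genes, so the choice itself favours such signs. The median over the 36 genes before onset was -1.08 in 2012, -2.38 in 2013 and -0.63 in 2014, so 2013 gave the largest part of the early difference. At day 42 to 43 it was 1.32, 1.63 and 1.54 in these seasons. In 2014 before onset, 1 of the 3 Pinot noir libraries was the one that carried the markers of Cabernet Sauvignon. All values given for that group include this library, and its part in the smaller difference of 2014 was not tested. The berries compared before onset were also not at the same sugar content. Sugar was 1.23, 1.17 and 0.81 g/100 ml in Pinot noir of 2012, 2013 and 2014, against 0.45, 0.48 and 0.43 g/100 ml in Cabernet Sauvignon. Its part in the differences was not tested.

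Libraries that took no part in the choice of the genes gave the tests. They were compared with limma on log2(RPKM + 1), in 1 fit over all libraries with a mean for each group. A gene counted as higher or lower if its difference was at least 1 in size and its p-value, adjusted after Benjamini and Hochberg for all 21425 genes, was under 0.05. The labels name vine blocks but not how they map to libraries, so the p-values measure the spread between these libraries.

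On the green side, the libraries were those of day -28 in 2012 and day -20 in 2013, with 6 per cultivar. Of the 36 genes, 23 were lower in Pinot noir and the other 13 did not pass, with a median of -1.36. Of all genes tested, 4.62% were lower in Pinot noir and 3.97% were higher. Of the 10 genes, 5 were higher in Pinot noir and the other 5 did not pass, with a median of 0.71. Sugar was 0.52 g/100 ml in Pinot noir and 0.51 in Cabernet Sauvignon in 2012, and 0.79 in Pinot noir against 0.44 in Cabernet Sauvignon in 2013. The 36 genes had a median of -0.67 in 2012, with 23 below 0, and of -1.95 in 2013, with all 36 below 0. Without 2013, 19 of the 46 genes passed in the direction of the rule and 3 in the other, against 28 and 0 with both seasons. Of all genes, 1279 were then higher and 1323 lower, against 850 and 990 with both seasons.

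On the ripe side, the libraries of day 32 to 36 were compared, with 9 per cultivar. Of the 36 genes, 28 were higher in Pinot noir and the other 8 did not pass, with a median of 1.44. Of all genes, 5.68% were higher and 4.48% were lower. Of the 10 genes, 7 were lower in Pinot noir and the other 3 did not pass, with a median of -1.23. Both cultivars belonged to the same kind of library in each season at this stage. Sugar content was also close there, at 20.62, 22.04 and 19.85 g/100 ml in Pinot noir of 2012, 2013 and 2014, against 19.14, 22.52 and 21.16 g/100 ml in Cabernet Sauvignon. The sign at day 32 to 36 was that of day 42 to 43 in all 3 seasons for 41 of the 46 genes. Every Pinot noir library was above every Cabernet Sauvignon library in 17 of the 36 genes (7.56% of all genes), and every one was below in 5 of the 10 (9.37% of all genes).

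Both sides together were passed by 23 of the 46 genes. Of the 36, 19 were lower in Pinot noir in early green berries and higher at day 32 to 36, as were 0.327% of all genes tested. Of the 10, 4 were higher and then lower, as were 0.117% of all genes tested. The change between these stages, over 2012 and 2013, differed between the cultivars in 39 of the 46 genes by the interaction term. It was more positive in Pinot noir for 32 of the 36 (7.02% of all genes) and more negative for 7 of the 10 (5.32%). Without 2013 the interaction passed in 29 of the 46. Over all genes it was then more positive in 1674 and more negative in 1840, against 1504 and 1139 with both seasons. Of the 39 genes, 35 had opposite signs at the 2 stages, and the other 4 differed in the size of the change without a change of sign.

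**Figure D2:**
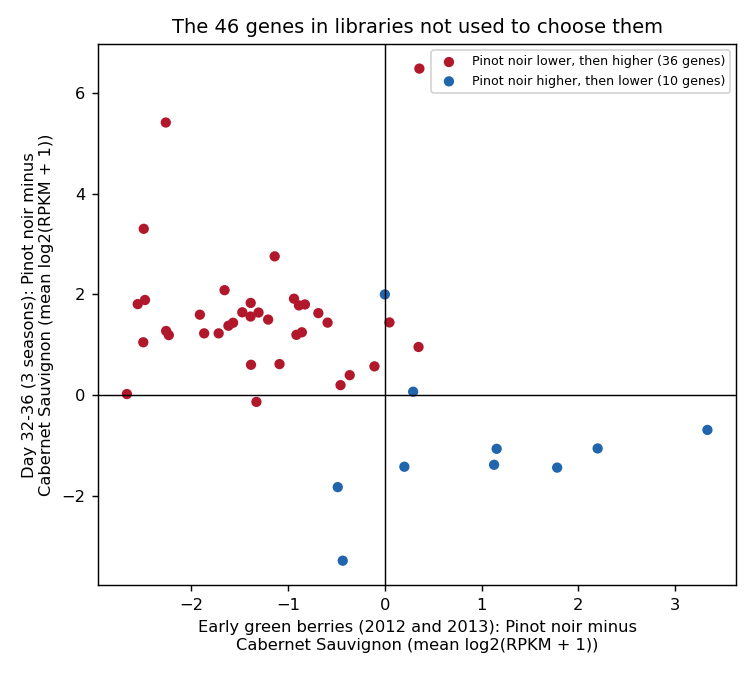
Difference between Pinot noir and Cabernet Sauvignon in mean log2(RPKM + 1) in early green berries of 2012 and 2013 (horizontal axis) and at day 32 to 36 of 3 seasons (vertical axis) for the 46 genes, in libraries that were not used to choose them. Opposite signs were seen in 38 genes, 32 of the 36 at the upper left and 6 of the 10 at the lower right.

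The difference changed sides at stages from onset to day 42 to 43, most often at day 21 to 22. In the 36 genes the median was -0.83 at onset (day -9 to -6), -0.27 at day 0, 0.18 at day 7 to 11 and 0.83 at day 21 to 22. At the first 3 of these stages 14, 9 and 3 of the 36 were lower in Pinot noir and 2, 4 and 8 were higher, and at day 21 to 22 17 were higher and the other 19 did not pass. Of all genes, 3.95%, 3.42%, 3.19% and 4.19% were lower in Pinot noir at these stages and 2.99%, 3.46%, 3.81% and 5.12% were higher. In the 10 genes the median was 0.78, 0.26, -0.45 and -0.93, with 3 genes higher in Pinot noir at onset, 2 higher at day 0, 3 lower at day 7 to 11 and 3 lower at day 21 to 22, and the others not past the threshold. The mean difference took its later sign for good at onset in 2 genes, at day 0 in 10, at day 7 to 11 in 12, at day 21 to 22 in 16, at day 32 to 36 in 3 and at day 42 to 43 in 3. By season, the median of the 36 genes at day 7 to 11 was 0.31 in 2012, 0.31 in 2013 and -0.43 in 2014. Labelled days did not mark the same sugar content in each season: at day 0 it was 8.47, 9.23 and 1.11 g/100 ml in Pinot noir of 2012, 2013 and 2014, against 6.83, 7.84 and 2.26 g/100 ml in Cabernet Sauvignon.

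After day 43 the later side held. At day 49 to 53, 25 of the 36 genes were higher in Pinot noir and the other 11 did not pass (median 1.30), and 5.01% of all genes were higher. Of the 10 genes, 8 were lower and the other 2 did not pass (median -1.46), and 4.84% of all genes were lower. Pinot noir had more sugar at that stage, with 26.75, 28.84 and 25.71 g/100 ml in 2012, 2013 and 2014, against 23.29, 24.0 and 23.22 g/100 ml in Cabernet Sauvignon. The last samplings were therefore also paired by sugar, a pairing chosen after the data had been seen. Pinot noir of day 53, 50 and 52 then had 26.75, 28.84 and 25.57 g/100 ml, against 27.38, 27.08 and 25.02 g/100 ml in Cabernet Sauvignon of day 74, 63 and 63. Of the 36 genes, 22 were higher in Pinot noir, 1 was lower and 13 did not pass (6.46% of all genes were higher), and of the 10 genes 5 were lower, 1 was higher and 4 did not pass (5.14% of all genes were lower).

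**Figure D3:**
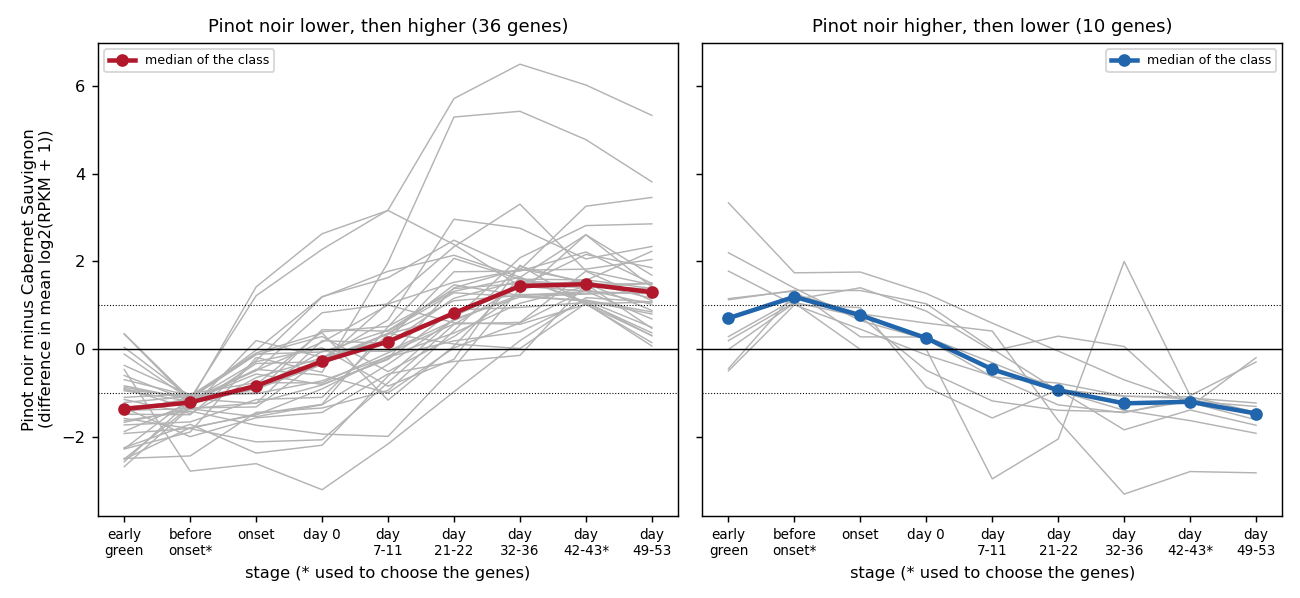
Difference between Pinot noir and Cabernet Sauvignon in mean log2(RPKM + 1) by stage, with 1 grey line per gene and a coloured line for the median of the 36 genes (left) and of the 10 genes (right); stages marked with an asterisk chose the genes. The left median passes 0 between day 0 and day 7 to 11 and stands at 1.44 at day 32 to 36, and the right median passes 0 over the same interval and stands at -1.23.

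The same sign change arose from different courses within the cultivars. Over 2012 and 2013, from early green berries to day 32 to 36, 19 of the 36 genes rose in Pinot noir, 4 fell and 13 did not pass, with a median change of 1.13. In Cabernet Sauvignon 3 of the 36 rose, 25 fell and 8 did not pass, with a median change of -1.98. Of all genes, 7.54% rose and 24.1% fell in Pinot noir, and 8.49% rose and 24.3% fell in Cabernet Sauvignon. Only 9 of the 36 genes both rose in Pinot noir and fell in Cabernet Sauvignon. A further 12 fell in Cabernet Sauvignon and did not pass in Pinot noir, and 7 rose in Pinot noir and did not pass in Cabernet Sauvignon. Of the rest, 4 fell in both, 3 rose in both and 1 passed in neither. The share of all genes with each of these combinations was not counted. Of the 10 genes, 5 fell and 1 rose in Pinot noir, and 2 fell and 3 rose in Cabernet Sauvignon.

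Over all genes, the changes within a cultivar depended on scaling between libraries. The median change of all genes was -0.35 in Pinot noir and -0.25 in Cabernet Sauvignon as deposited, and -0.0077 and 0.0055 after TMM scaling. The split of all genes in Pinot noir was 1615 higher and 5165 lower as deposited, against 2804 and 3398 after TMM scaling and 2895 and 3180 after quantile normalization. In Cabernet Sauvignon it was 1819 and 5203, against 2844 and 3850 after TMM scaling and 3310 and 3454 after quantile normalization. The calls among the 46 genes moved little. In Pinot noir 24 changed toward their day 42 to 43 side and 5 away from it as deposited, against 23 and 6 after TMM scaling and 25 and 6 after quantile normalization. In Cabernet Sauvignon 5 changed toward that side and 28 away from it, against 5 and 29 after TMM scaling and 5 and 25 after quantile normalization. Relative to the median gene, the 36 genes therefore fell less in Cabernet Sauvignon and rose more in Pinot noir than the values as deposited show. In bulk pericarp, fewer cells of a type and less RNA per cell cannot be told apart.

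**Figure D4:**
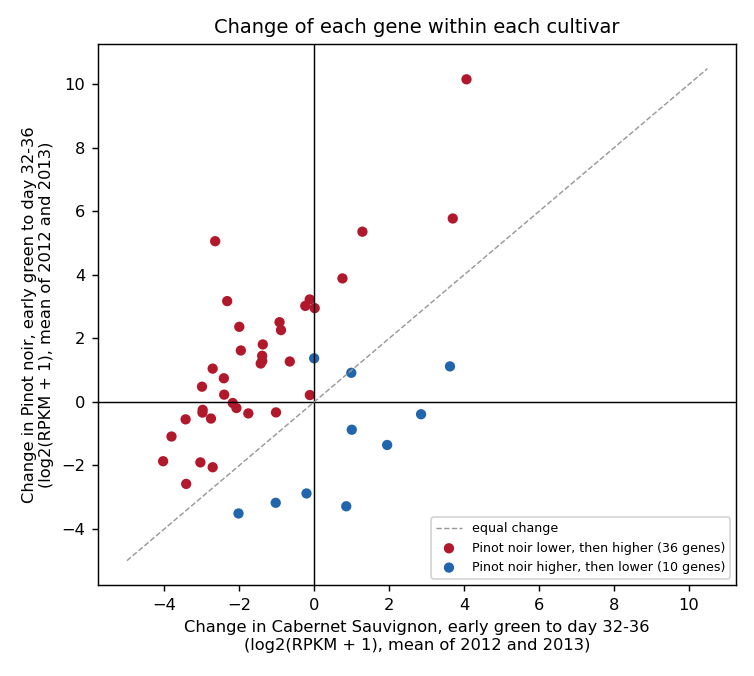
Change in mean log2(RPKM + 1) from early green berries to day 32 to 36, over 2012 and 2013, in Cabernet Sauvignon (horizontal axis) and in Pinot noir (vertical axis) for the 46 genes, with a dashed line of equal change. The 36 genes lie above the line, spread from falls in both cultivars at the lower left to rises in both at the upper right, and of the 10 genes 9 lie below it.

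Among the 36 genes, VIT_02s0025g04310 showed the largest difference on the ripe side. At day 32 to 36 its lowest, median and highest RPKM in 9 libraries were 6037, 10610 and 12470 in Pinot noir, against 56.1, 129.5 and 159 in Cabernet Sauvignon. The groups did not overlap, and the difference was 6.49 ± 0.39 (SE; limma, adjusted p = 7.92e-34), with the same sign in 3 of 3 seasons. Before onset it had 2.91, 4.34 and 7.96 RPKM in Pinot noir, against 0.475, 15.01 and 82.2 in Cabernet Sauvignon, and these ranges overlapped. That early difference was -1.84 in 2012, -2.27 in 2013 and 0.75 in 2014. The difference in early green berries was 0.36 ± 0.48 and did not pass (limma, adjusted p = 0.569), so a lower early level in Pinot noir was not detected in libraries outside the rule. It was a gene that rose in both cultivars, by 10.16 ± 0.48 in Pinot noir and 4.07 ± 0.48 in Cabernet Sauvignon (limma, adjusted p = 3.04e-45 and 6.49e-14).

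VIT_03s0091g00160 had the largest smaller-of-both difference of the 36, with -1.88 before onset and 4.77 at day 42 to 43. In early green berries its lowest, median and highest RPKM in 6 libraries were 0.238, 0.527 and 2.42 in Pinot noir, against 4.59, 7.59 and 11.5 in Cabernet Sauvignon. Later, at day 32 to 36, they were 35.98, 54.9 and 148 in Pinot noir, against 0, 0.158 and 1.98 in Cabernet Sauvignon. The groups did not overlap at either stage and changed places between them. The differences were -2.26 ± 0.30 and 5.41 ± 0.25 (limma, adjusted p = 5.33e-11 and 1.49e-46), and the interaction was 7.71 ± 0.43 (adjusted p = 1.53e-36). At onset both cultivars were low, with medians of 0.228 RPKM in Pinot noir and 0.443 in Cabernet Sauvignon, and Pinot noir then rose to a median of 12.4 RPKM at day 7 to 11 and 56.3 at day 21 to 22. In 2014 its early level in Cabernet Sauvignon was low too, with means of 0.403 RPKM in Pinot noir and 1.01 RPKM in Cabernet Sauvignon before onset.

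VIT_09s0002g06400 was lower in Pinot noir in early green berries, with a difference of -2.48 ± 0.36 (limma, adjusted p = 1.49e-09) and 5.24, 13.7 and 52.5 RPKM in Pinot noir against 47.7, 86.4 and 102 in Cabernet Sauvignon. By day 32 to 36 it had 54.1, 69.8 and 140.1 RPKM in Pinot noir, against 10.6, 17.9 and 29.7 in Cabernet Sauvignon. The early ranges overlapped slightly and the later ranges did not, and the later difference was 1.89 ± 0.29 (limma, adjusted p = 7.76e-09) with the same sign in 3 of 3 seasons. At matched late sugar content the difference was 0.46 ± 0.29 and did not pass (limma, adjusted p = 0.161).

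VIT_15s0107g00550 crossed late. From day 7 to 11, when its difference was -1.98 ± 0.23 (limma, adjusted p = 1.2e-13), its median in Pinot noir moved little, at 8.91 RPKM then and 13.75 at day 32 to 36, while Cabernet Sauvignon had 34.7 and 6.41 RPKM at these stages. The difference at day 32 to 36 was 1.38 ± 0.23 (adjusted p = 5.69e-08), with overlapping ranges, and at matched late sugar it was 2.76 ± 0.23 (adjusted p = 1.22e-22). The gene fell in Cabernet Sauvignon from early green berries to day 32 to 36 by 2.98 on the log2 scale, against a change of -0.25 ± 0.28 in Pinot noir that did not pass (limma, adjusted p = 0.421). VIT_18s0001g14440 fell in both cultivars, by 1.87 in Pinot noir and by 4.03 in Cabernet Sauvignon (limma, adjusted p = 5.59e-09 and 2.16e-27).

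VIT_00s0323g00060 had the largest early difference of the 46 genes, -2.77 before onset, and reached its later sign only at day 32 to 36. It was lower in Pinot noir at onset and at day 0, with differences of -2.60 ± 0.26 and -3.19 ± 0.26 (limma, adjusted p = 7.26e-17 and 1.38e-22). At day 0 it had 4.89, 8.00 and 50.8 RPKM in Pinot noir, against 23.6, 100.7 and 322.9 in Cabernet Sauvignon, with overlap at the ends of the ranges. In early green berries its difference of -0.46 ± 0.32 did not pass (adjusted p = 0.237), and by day 49 to 53 it was higher in Pinot noir by 1.08 ± 0.26 (adjusted p = 0.000168), with a median of 17.3 RPKM in Pinot noir against 7.74 in Cabernet Sauvignon.

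A stretch of 10 neighbouring IDs held 4 of the 36 genes, VIT_05s0049g00660, VIT_05s0049g00720, VIT_05s0049g00740 and VIT_05s0049g00780. Of its 6 other IDs, all tested, VIT_05s0049g00730 had the same signs (-2.11 and 0.98) and 5 did not. At day 32 to 36 all 4 genes were higher in Pinot noir, by 1.60 ± 0.34, 1.23 ± 0.26, 1.64 ± 0.37 and 1.44 ± 0.40 in that order (limma, adjusted p = 1.32e-05, 1.87e-05, 4.12e-05 and 0.000888). In early green berries the first 3 were lower in Pinot noir, with differences of -1.91 ± 0.41, -1.72 ± 0.32 and -1.47 ± 0.45 (limma, adjusted p = 3.15e-05, 1.86e-06 and 0.00371), and the last did not pass at -0.59 ± 0.49 (adjusted p = 0.322). The early side of the stretch came from 2013: before onset, mean RPKM in that season was 1.06, 0.362, 0.471 and 0.818 in Pinot noir, against 114.6, 34.2, 50.3 and 30.01 in Cabernet Sauvignon. In 2012 and 2014 VIT_05s0049g00660 differed by -0.07 and 0.04 there. Levels in the stretch were very unequal, as VIT_05s0049g00760 averaged 12510 RPKM over all libraries and VIT_05s0049g00660 averaged 9.05. The libraries were not strand-specific, and how reads were assigned between similar neighbours is not given in the sources used here.

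For 2 of the 36 genes the level followed the kind of library described above in both cultivars. For a further gene it did so only in Pinot noir. From day 21 on, every Pinot noir library of the kind seen in 2014 was below every other Pinot noir library in VIT_00s0346g00110, VIT_00s0218g00190 and VIT_05s0049g00780. In Cabernet Sauvignon the same held for the first 2 of these, and the ranges of VIT_05s0049g00780 overlapped. The share of all genes that separate in this way was not counted. In Pinot noir the libraries of that kind were those of the season 2014, so kind and season cannot be told apart there. VIT_00s0346g00110 had a median of 15.7 RPKM in those 18 Pinot noir libraries and 61.3 in the other 27, against 0.0839 in the 33 Cabernet Sauvignon libraries of that kind and 34.95 in the other 30. At day 42 to 43 its difference was 0.48 in 2012 and 3.63 in 2014, and 5.66 in 2013, where the kinds differed between the cultivars. At day 32 to 36, where they did not, it was 0.73, 0.69 and 4.00 in 2012, 2013 and 2014. For VIT_05s0049g00780 the day 42 to 43 difference was 5.53 in 2013 and averaged 0.48 over 2012 and 2014. Over 2012 and 2014 alone, all 46 genes kept the sign of their difference at day 42 to 43, 40 with a size of at least 1, and 41 kept the sign before onset, 28 with a size of at least 1. These are 2 of the 3 seasons that chose the genes, so the choice itself favours the same sign there.

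Among the 10 genes, VIT_19s0014g02730 was the most abundant of those described. In early green berries its lowest, median and highest RPKM were 3814, 4626 and 5631 in Pinot noir, against 250.2, 461 and 865 in Cabernet Sauvignon. The groups did not overlap, and the difference was 3.33 ± 0.19 (limma, adjusted p = 1.4e-36), with the same sign in both seasons. Pinot noir stayed above until day 0, where the medians were 3874 RPKM in Pinot noir and 1664 RPKM in Cabernet Sauvignon and the difference was 1.27 ± 0.15 (adjusted p = 6.46e-13). At day 32 to 36 the medians were 449.7 RPKM in Pinot noir and 611 in Cabernet Sauvignon, and the difference of -0.69 ± 0.15 was under the size threshold (adjusted p = 3.38e-05). At day 49 to 53 it had 139.1, 202 and 309 RPKM in Pinot noir, against 387, 543.5 and 1414 in Cabernet Sauvignon, without overlap and with a difference of -1.60 ± 0.15 (adjusted p = 1.86e-18). The gene fell in Pinot noir by 3.29 ± 0.19 between early green berries and day 32 to 36, and its change of 0.86 ± 0.19 in Cabernet Sauvignon was under the size threshold (adjusted p = 5.47e-37 and 1.77e-05).

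VIT_10s0003g01460 rose in both cultivars, by 1.12 ± 0.16 in Pinot noir and 3.63 ± 0.16 in Cabernet Sauvignon (limma, adjusted p = 3.71e-10 and 5.26e-48). It had 4.195, 4.57 and 13.2 RPKM in Pinot noir in early green berries, against 0.834, 2.16 and 2.83 in Cabernet Sauvignon, and 9.32, 14.9 and 19.5 RPKM in Pinot noir at day 32 to 36, against 32.4, 39.6 and 52.2 in Cabernet Sauvignon. The groups did not overlap at either stage, and the differences were 1.13 ± 0.16 and -1.38 ± 0.13 (limma, adjusted p = 1.08e-09 and 2.29e-18). VIT_06s0004g06370 also passed on both sides, with 1.78 ± 0.14 and -1.44 ± 0.11 (limma, adjusted p = 4.36e-25 and 4.32e-25). VIT_01s0137g00360 passed likewise, with 2.20 ± 0.19 and -1.06 ± 0.15 (limma, adjusted p = 1.34e-21 and 4.79e-10), and at matched late sugar its difference of -0.40 ± 0.15 was under the size threshold (adjusted p = 0.0169).

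VIT_05s0049g01450 had the largest later difference of the 10. At day 32 to 36 it had 0, 0.244 and 0.826 RPKM in Pinot noir, against 3.76, 13.0 and 23.4 in Cabernet Sauvignon. The groups did not overlap, and the difference was -3.29 ± 0.25 (limma, adjusted p = 5.26e-25) with the same sign in 3 of 3 seasons. At day 7 to 11 Pinot noir still had a median of 31.25 RPKM, against 17.4 in Cabernet Sauvignon, a difference of 0.42 ± 0.25 that did not pass (adjusted p = 0.161). In early green berries the difference was -0.44 ± 0.31 (adjusted p = 0.245), with -1.51 in 2012 and 0.64 in 2013. VIT_13s0019g04660 fell in both cultivars, by 3.51 ± 0.15 in Pinot noir and by 2.02 ± 0.15 in Cabernet Sauvignon (limma, adjusted p = 1.37e-49 and 2.79e-26), and was lower in Pinot noir from day 7 to 11 on.

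**Figure D5:**
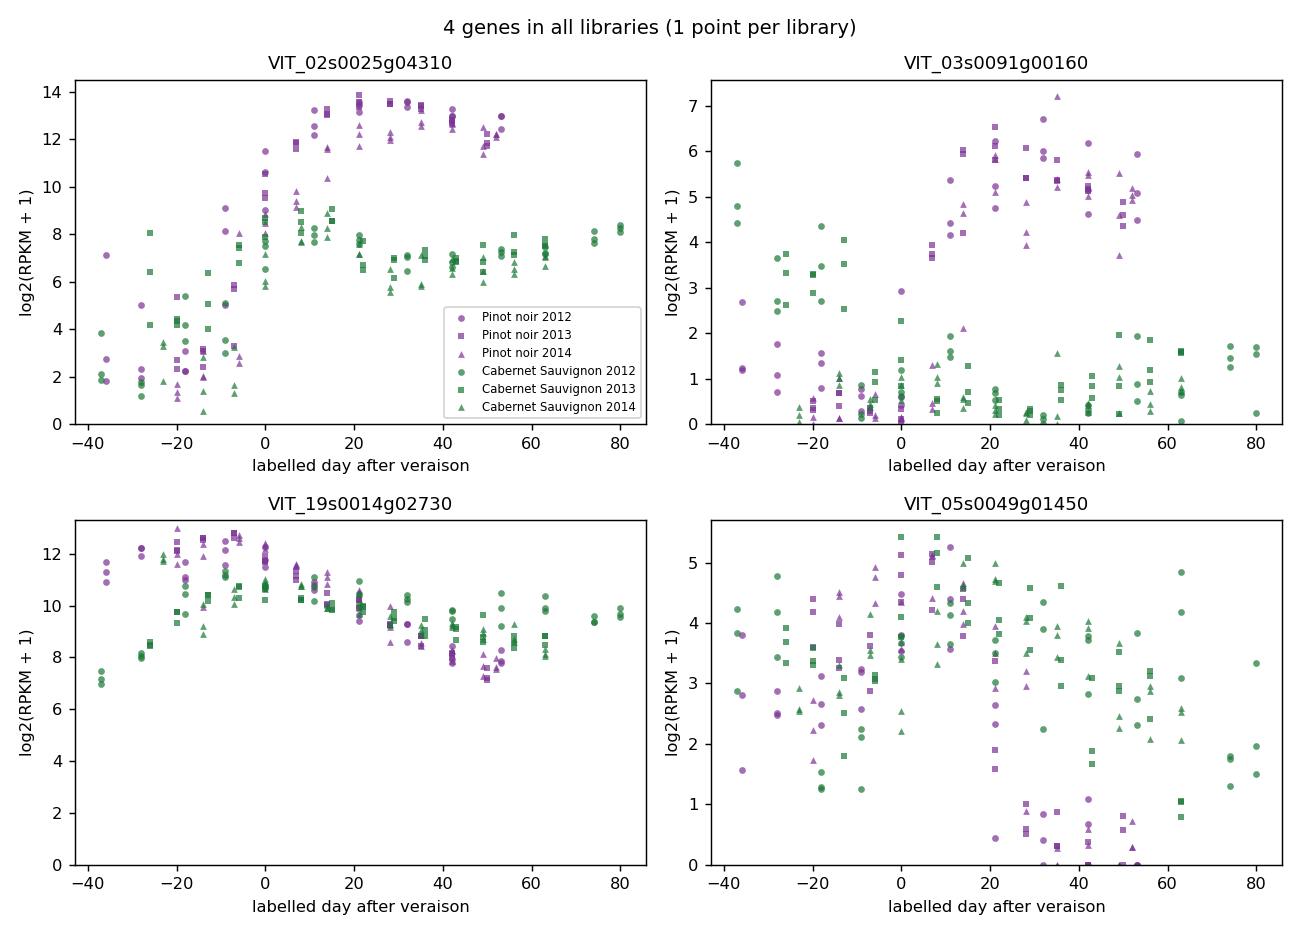
Level of 4 of the genes as log2(RPKM + 1) against the labelled day after veraison, 1 point per library, with Pinot noir in purple and Cabernet Sauvignon in green and a symbol for each season. VIT_02s0025g04310 and VIT_03s0091g00160 stand far higher in Pinot noir from day 21 on, VIT_19s0014g02730 starts higher in Pinot noir and ends lower, and VIT_05s0049g01450 drops to near 0 in Pinot noir after day 21.

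A gene that met the rule through single libraries was VIT_14s0066g00570, named after its values were seen. It was above 0 in 17 libraries, where it ranged from 302.7 to 1418 RPKM. Its early difference came from 1 Pinot noir library (728.3 RPKM), the library that carries Cabernet Sauvignon transcripts, and its later one from 1 Cabernet Sauvignon library (709.6 RPKM). In early green berries it was at 0 in all 12 libraries, and at day 32 to 36 its difference of 2.00 ± 1.11 had the other sign and did not pass (limma, adjusted p = 0.107). VIT_19s0015g00290 was also lost without the libraries that carried the markers of the other cultivar. It was lower in Pinot noir at day 32 to 36 (difference -1.83 ± 0.55, limma, adjusted p = 0.00246) and did not pass in early green berries, at -0.49 ± 0.68 (adjusted p = 0.584).

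Lists of ripening and phenylpropanoid genes held 128 IDs of the table, of which 102 were tested. Their IDs were taken from published use of these IDs and not from a file. Stilbene synthases, phenylalanine ammonia-lyases and flavonoid 3',5'-hydroxylases were listed mainly as ranges of neighbouring IDs. Every ID between the ends of a range was counted, and whether each belongs to the family was not checked. None was among the 46 genes, and a rule that kept 0.215% of all genes would leave fewer than 1 in lists of this size. The ranges of stilbene synthases, which make resveratrol and related defence compounds, had 43 tested IDs. Their median difference was -0.05 in early green berries and 3.12 at day 32 to 36. At the later stage 41 of these IDs were higher in Pinot noir. Of 18 tested IDs listed for the phenylalanine ammonia-lyase family, the entry step to phenylpropanoids, 12 were higher in Pinot noir at day 32 to 36. The median difference of the 18 was 2.55 there. At the earlier stage, 1 ID of the stilbene synthase ranges was higher and 1 lower in Pinot noir. Of those listed for the phenylalanine ammonia-lyase family, 2 were lower. Of 16 tested IDs of the flavonoid 3',5'-hydroxylase cluster, which acts in blue and purple pigment synthesis, 5 were lower in Pinot noir at day 32 to 36 and 2 were lower in early green berries. Of 5 NAC transcription factors named in ripening work, 4 were higher in Pinot noir in early green berries and 1 was lower at day 32 to 36.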

How the data were processed

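Per the submitters' processing notes, TopHat2 2.0.6 and Cufflinks 2.0.2 were used, and the authors deposited RPKM for 29971 gene IDs, with 1 column per library. The sources used here do not give the genome build, annotation or counting options. Without counts in the table the read depth cannot be stated, and intervals for counting error are not reported. Libraries of non-directional cDNA, per the labels' protocols, do not separate strands.

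Here values were transformed to log2(RPKM + 1), and only genes that reached 1 RPKM in 3 or more libraries entered the fit. In R 4.3.3, a mean for each of 73 groups was fitted with the trend and robust options of limma 3.58.1 (146 residual degrees of freedom), and p-values were adjusted by Benjamini-Hochberg over 21425 genes. Standard errors come from the spread of libraries within groups. Tables were handled with pandas 2.3.3 in Python 3.11.15, and the fit was tested on simulated data. The genes, windows and lists were chosen with earlier results of these data known. The stages used by the rule were given without a test. Genes were named by rule: for each direction the 2 with the largest smaller difference, the 2 nearest the threshold on either side, up to 2 in each direction per comparison with the same sign in every season and a mean RPKM of at least 5, and 2 of the longest run of neighbouring IDs, of which all 4 members are given.

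Alternatives were 2 other pseudocounts (0.1 and 5), the unfiltered table, a stricter filter (mean RPKM of 5 or more), quantile normalization, TMM scaling computed on RPKM, a replicate block, each replicate number or season left out, season means as replicates, libraries with transcripts of the other cultivar left out, 2014 added to the early green comparison, and a rule threshold of 1.5.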

Additional observations from a re-analysis of the deposited data

Results flagged for a closer look

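The change from early green berries to day 32 to 36, over 2012 and 2013, differed between Pinot noir and Cabernet Sauvignon by the interaction term (limma, adjusted p under the threshold and a size of at least 1) in 39 of the 46 genes, and in 29 without 2013. It was more positive in Pinot noir for 32 of the 36 genes (7.02% of all genes) and more negative for 7 of the 10 (5.32%). Without 2013 it was more positive in 1674 of all genes and more negative in 1840, against 1504 and 1139 with both seasons. The largest interactions among the named genes, as the change in Pinot noir minus the change in Cabernet Sauvignon, were 7.71 in VIT_03s0091g00160, 6.10 in VIT_02s0025g04310 and 3.44 in VIT_05s0049g00660. In the other direction they were -4.14 in VIT_19s0014g02730, -3.30 in VIT_01s0137g00360, -2.68 in VIT_05s0049g01450 and -2.51 in VIT_10s0003g01460. In VIT_02s0025g04310 and VIT_05s0049g01450 the difference of early green berries did not pass, so the interaction there shows an unequal change and not a change of sign.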

How the results depend on the processing

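The rule was sensitive to its settings. It gave 161 genes with a pseudocount of 0.1, 6 with a pseudocount of 5, 3 at a threshold of 1.5, 76 without 2012, 70 without 2014, and 45 without 2013, of which 25 were shared with the 46. With a pseudocount of 5, genes called on the early side of the rule fell to 14 in early green berries, 8 at onset and 5 at day 0, against 28, 17 and 11. Genes called on its later side fell to 5 at day 7 to 11, 9 at day 21 to 22, 16 at day 32 to 36, 15 at day 49 to 53 and 13 at matched late sugar, against 11, 20, 35, 33 and 27. On the opposite side there were 0 at onset, 3 at day 0, 2 at day 7 to 11 and 0 at matched late sugar, against 2, 4, 3 and 2. A larger pseudocount shrinks differences of low genes. Calls over all genes fell as well. In early green berries they went from 850 higher and 990 lower to 363 and 402. At day 32 to 36 they went from 1216 higher and 960 lower to 580 and 365. A mean RPKM of at least 5 left 33 of the 46, of which 17 were called on the early side in early green berries and 10 at onset, where 2 were called on the later side. Of all 13026 genes left by that filter, 449 were higher and 392 lower in early green berries, and 354 and 376 at onset. In the change in Cabernet Sauvignon 16 moved away from the later side and 5 toward it, against 28 and 5. Of all 13026 genes, 1420 rose and 2976 fell in that change.

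Leaving out each replicate number in turn gave 48 to 67 genes by the rule, of which 35 to 39 were among the 46. It left 27 to 29 called in early green berries, 30 to 35 at day 32 to 36 and 36 to 38 in the interaction. At day 7 to 11 it left 6 (without replicate 1) to 9 on the later side and 2 to 5 on the early side, against 11 and 3. Over all genes, early green berries then had 808 to 926 higher and 910 to 1151 lower. Day 32 to 36 had 1193 to 1256 and 953 to 1032, and day 7 to 11 had 794 to 871 and 681 to 705. The interaction had 1423 to 1635 and 1028 to 1425. Leaving out 2013 gave 19 called in early green berries, with 3 more called in the opposite direction and the sign of the rule in 29 of 46, against 28, 0 and 40, and 29 in the interaction. Leaving out 2012 gave 34 in early green berries and 41 in the interaction. Over all genes, early green berries then had 880 higher and 1283 lower without 2012, and 1279 and 1323 without 2013. The interaction had 1744 and 1130 without 2012, and 1674 and 1840 without 2013. With season means as replicates limma called 0 of the 46 in early green berries, at onset and in the interaction. There 21, 22 and 39 of the 46 had an unadjusted p under 0.05. At day 7 to 11 it called 5 on the later side and 2 on the early side, with 669 of all genes higher and 640 lower. At day 32 to 36 it called 33, with 1147 of all genes higher and 906 lower. In that fit 0 of all 21425 genes were called in early green berries and in the interaction, and 59 higher and 12 lower at onset, where 2115, 2522 and 4824 had an unadjusted p under 0.05. Its counts of 0 among the 46 are therefore no measure of these genes. Adding 2014 as labelled to early green berries left 17 called. That fit included the 3 Cabernet Sauvignon libraries with Pinot noir markers, and over all genes 377 were higher and 439 lower. Matching 2014 by sugar content gave 31, with 675 higher and 904 lower over all genes. In the main fit, 850 of all genes were higher and 990 lower. Without 2013, VIT_05s0049g00740 reversed to 0.23 in early green berries and to 0.12 in the change in Cabernet Sauvignon, and VIT_18s0001g14440 reversed to 0.051 in early green berries. Without 2014, VIT_00s0346g00110 reversed to -0.24 at day 7 to 11. The causes were not tested. Of the other values for named genes, 202 fell under the threshold, 45 passed it and 3234 kept their call.

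With the replicate number as a block the counts called were the same, 28 in early green berries, 35 at day 32 to 36 and 39 in the interaction. The numbers did not pair Pinot noir with Cabernet Sauvignon libraries of the same season and stage: over 78 pairs, deviations of libraries with the same number correlated at -0.22 to 0.38 (median 0.0031), 21 of them over 0.1. Whether a number marks the same vine block across time points was not tested.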
